A study of Homo sapiens with 6 samples.

Results

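The genes described here encode the proteins that build and bind small nuclear RNAs: the SNRP proteins of small nuclear ribonucleoproteins (snRNPs), the LSM proteins, and the subunits of the Integrator and SNAPc complexes. They were taken by symbol, as rows of the array whose single gene symbol starts with SNRP, LSM, INTS or SNAPC and goes on with a letter or digit. This gave 48 genes of 18417 with a row of their own, each read from its row with the highest mean over the 6 arrays. Of these, 45 belong to the protein families named above. The other 3 are the pseudogene SNRPD2P2 and the genes LSMEM1 and LSMEM2, whose products are membrane proteins and not LSM proteins.

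Total RNA came from RD18, an established line of embryonal rhabdomyosarcoma, a cancer that resembles skeletal muscle at an early stage. The derivative NpBI-22 was profiled on 2 induced arrays, after doxycycline (1 µg/ml) for 6 days, and on 2 non-induced arrays, without the drug, which the series calls biological replicates. The derivative NpBI-206AS was profiled on 1 induced array, with the same drug, dose and time, and on 1 non-induced array. The series title says that the cells express miR-22. The labels do not say what the NpBI-206AS construct makes, whether either derivative is a single clone, or whether replicate cultures were grown in parallel.

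Small nuclear RNAs guide the removal of introns from messenger RNA precursors. Their genes are recognised by SNAPc, and the transcripts that RNA polymerase II makes from them are cut by Integrator. Most then receive a ring of Sm proteins with the help of the SMN complex, while U6 carries a ring of LSM proteins instead. U7, which serves the processing of histone messenger RNA ends, has a mixed ring that contains LSM10 and LSM11. A closely related LSM ring works in the cytoplasm, where it helps to remove the cap from messenger RNAs that are to be degraded.

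The mature sequence of the microRNA in the study's title is shown because it is the molecule the cells were made to express. The sequence is RefSeq's (GRCh38.p14, chr17:1713914-1713935, minus strand), with the seed, bases 2 to 8, in capitals.
hsa-miR-22-3p: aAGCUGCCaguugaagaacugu
The mature microRNA has no reading here, and the row of its host gene served as the check of the labels. MIR22HG read 10.02 and 10.01 in induced NpBI-22 cells, 6.27 and 6.72 in non-induced NpBI-22 cells, and 6.32 and 6.41 in induced and non-induced NpBI-206AS cells, all on the log2 scale. Only the 2 induced NpBI-22 arrays were high.

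Array medians ran from 5.66 to 5.75 and lower quartiles from 3.92 to 4.01 on the log2 scale, and arrays correlated at r = 0.9748 to 0.9948 over all rows. Of 9 muscle lineage markers, 8 averaged above the array median, MYF5 being the exception. Among markers of other cell types, no measured blood or endothelial gene did, and 1 epithelial gene, KRT8, did. The mean of the muscle markers was 7.77 and 7.98 on the induced NpBI-22 arrays and 8.08 to 8.56 on the other 4. Its part in the results below was not tested. The labels give both induced NpBI-22 arrays the code R715, non-induced NpBI-22 replicate 1 the code R509 and the other 3 arrays R587. They do not say what the code means, so whatever it marks and the induction of NpBI-22 cells cannot be told apart. The number of arrays limits the precision: the SE of a member's log2 difference ran from 0.145 to 0.402 within NpBI-22 cells and from 0.101 to 0.35 against the 4 other arrays.

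The first question was whether the protein genes changed together with the small nuclear RNAs they serve. Few did. Of the 48 genes, 1 rose and 1 fell in induced against non-induced NpBI-22 cells at a limma adjusted p under 0.05. This was 4.17%, against 3.26% of all genes (1.73% higher and 1.53% lower). By unadjusted p (under 0.05), 8 members were higher and 3 lower, or 22.9%, against 21.2% of all genes. Their log2 changes ran from -0.94 to 1.31, with a median of 0.00, against 0.01 over all genes. The small nuclear RNAs were read from 22 genes whose symbol starts with RNU or RNVU and a digit, without pseudogene symbols. They were taken by symbol alone, and the kind of RNA was not checked for each. The rule also took RNU105B and RNU105C, which differed by -0.00 and -0.19. Unlike the members, 10 of these 22 genes rose and none fell, with a median log2 change of 1.36. By unadjusted limma p under 0.05 the counts were 13 and 0. RNU4-2, an RNA of the spliceosome, read 5.75 and 6.39 in induced and 3.05 and 3.42 in non-induced NpBI-22 cells. RNU5E-1 read 8.96 and 8.97 against 6.70 and 6.04, and RNU5D-1 read 7.81 and 8.09 against 5.25 and 5.75. Near-identical copies of small nuclear RNA genes may share probe signal, and RNU4-2 in non-induced cells lay under the lower quartile of the arrays. The mean over 6 arrays lay under it for RNU5B-1 and RNU5F-1, which passed, and for RNU5A-1, RNVU1-3, RNVU1-4, RNVU1-17 and RNVU1-19. In bulk RNA, as here, fewer cells that make a transcript and less of it per cell cannot be told apart.

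**Figure D1:**
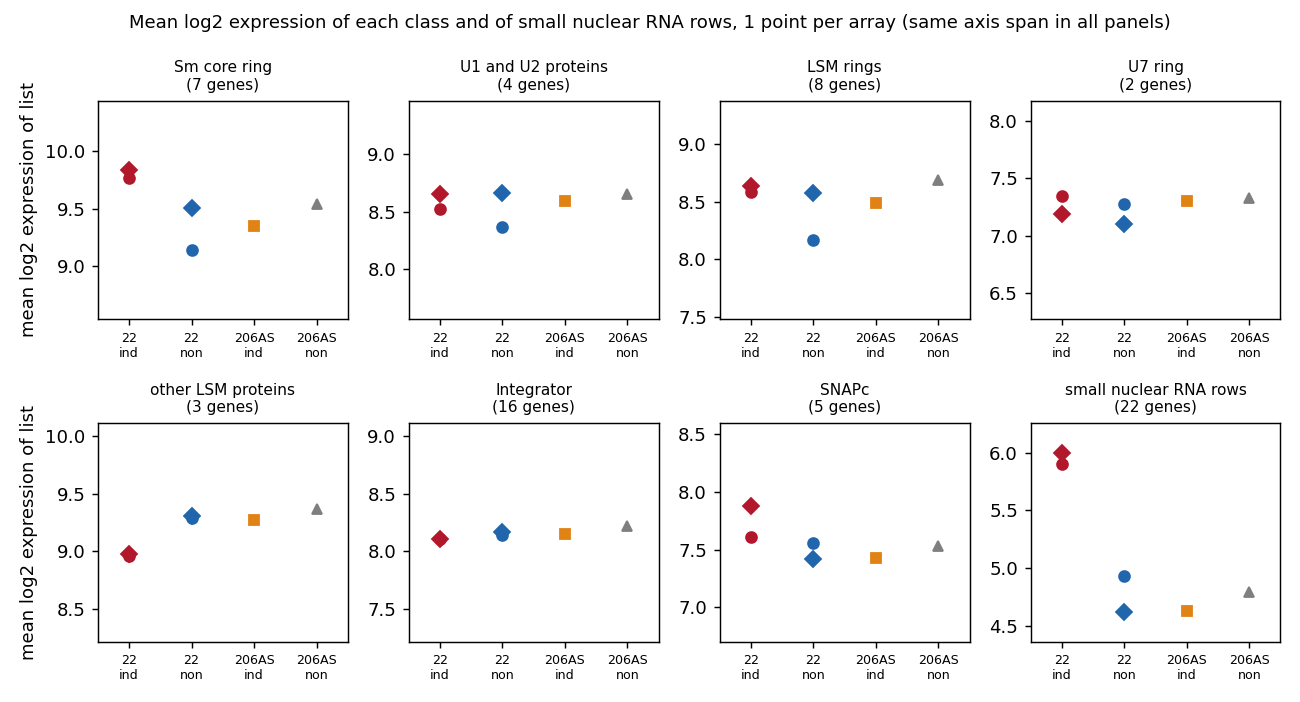
Mean log2 expression, on each array, of the members of each class and of 22 genes taken as small nuclear RNA genes by symbol. Axis labels name the line without its NpBI prefix and the condition as ind (induced) or non (non-induced). In NpBI-22, circles are replicate 1 and diamonds replicate 2. The vertical span is the same in all panels. The small nuclear RNA genes averaged 5.90 and 6.00 on the induced NpBI-22 arrays and 4.62 to 4.93 on the others, while the Integrator genes averaged 8.11 on both induced arrays and 8.14 to 8.22 on the others.

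When the 2 induced NpBI-22 arrays were set against all 4 other arrays, 5 of the 48 genes rose and 3 fell. This was 16.7%, against 14.1% of all genes (7.78% higher and 6.31% lower). By unadjusted p (under 0.05), 11 members were higher and 6 lower, or 35.4%, against 28.6% of all genes. The genes that rose were SNAPC5, SNRPB, SNRPC, SNRPG (not on its second row) and LSM4, and those that fell were INTS10, SNRPA1 and LSM12. For 21 genes both induced arrays lay outside the range of the other 4, 12 above and 9 below, or 43.8%, against 39.4% of all genes (22.1% above and 17.2% below). The share of members that moved was thus near that of the array as a whole in each of these readings. By size the shares lay further apart. Within NpBI-22 cells, 27.1% of members and 18.7% of all genes had a log2 difference of at least 0.5 in either direction. Against the 4 others the shares were 22.9% and 17.4%. Whether these shares differ was not tested. The count of 8 depended on single arrays. It was 16 without non-induced NpBI-22 replicate 1 and 5 without non-induced NpBI-22 replicate 2. The rows that passed numbered 7463 and 2641 there, against 4576 of 33297 on all arrays. Without induced replicate 1 or induced replicate 2, which leaves 1 induced array, fewer members and fewer rows passed than on all arrays. SNAPC5 and INTS10 passed in each of these 4 cases. In the comparison within NpBI-22 cells, no member and no other row passed when any 1 of the 4 NpBI-22 arrays was left out, which leaves 1 array in a group. Centring each array on its median gave 7 members higher and 2 lower against the 4 other arrays, and 1 higher and 0 lower within NpBI-22 cells.

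**Figure D2:**
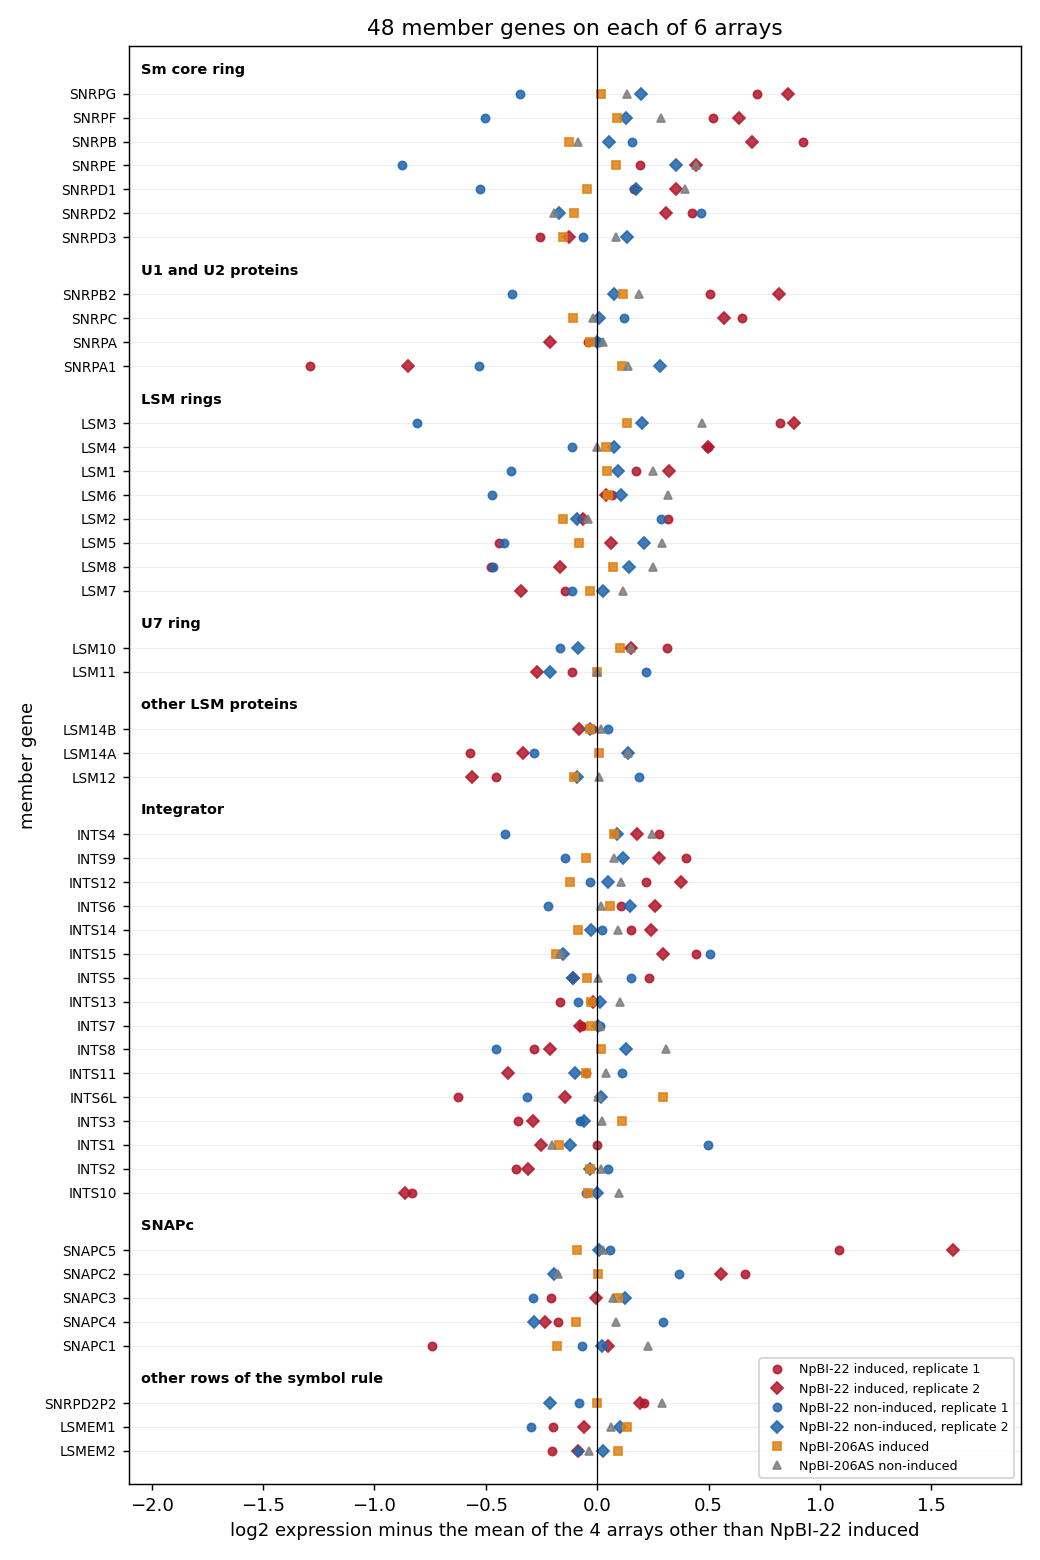
Log2 expression of each of the 48 genes on each array, minus the mean of the 4 arrays other than induced NpBI-22, ordered within each class by the difference between induced and non-induced NpBI-22 cells. SNAPC5 and INTS10 stand clear of the other arrays, and non-induced NpBI-22 replicate 1 (blue circles) lies left of the other control arrays for many SNRP and LSM genes.

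The Sm ring is made of SNRPB, SNRPD1, SNRPD2, SNRPD3, SNRPE, SNRPF and SNRPG. Of these 7 genes, 6 had a positive difference between induced and non-induced NpBI-22 cells, 3 of them at an unadjusted limma p under 0.05, and none passed after adjustment. Of all 18417 genes, 9415 had a positive difference there, and 2224 were higher and 1680 lower at an unadjusted limma p under 0.05. Without the dimmest 50 percent of rows SNRPB (adjusted p = 0.037) and SNRPG (adjusted p = 0.040) passed there, by limma. The class median was 0.58, ran from 0.45 to 0.78 with 1 NpBI-22 array left out and was 0.43 with the rows of each gene averaged. SNRPB, which encodes the B and B′ proteins of the ring, read 10.52 and 10.29 in induced and 9.75 and 9.65 in non-induced NpBI-22 cells, and 9.47 and 9.51 in induced and non-induced NpBI-206AS cells. Both induced NpBI-22 arrays lay above the other 4. The difference within NpBI-22 cells was 0.71 on the log2 scale (SE 0.162, limma adjusted p = 0.078). Against all 4 other arrays SNRPB rose 1.76-fold (log2 change 0.81, SE 0.132, adjusted p = 0.0085), and it did not pass there without induced replicate 1 (adjusted p = 0.09).

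SNRPG read 9.41 and 9.55 in induced and 8.35 and 8.89 in non-induced NpBI-22 cells, and 8.71 and 8.83 in induced and non-induced NpBI-206AS cells. It rose 1.72-fold against the 4 other arrays (log2 change 0.78, SE 0.169, limma adjusted p = 0.023), and did not pass without either induced array (adjusted p of up to 0.15). A second row of SNRPG, not used for the counts, read 7.04 and 6.79 in induced and 6.88 and 7.22 in non-induced NpBI-22 cells, with a log2 difference of -0.07 from the 4 other arrays (adjusted p = 0.83). The 2 rows of SNRPG thus did not show the same change. With its rows averaged, SNRPG had a log2 difference of 0.36 from the 4 other arrays (adjusted p = 0.16).

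SNRPF read 8.91 and 9.03 in induced and 7.89 and 8.52 in non-induced NpBI-22 cells, and 8.48 and 8.68 in induced and non-induced NpBI-206AS cells. The induced NpBI-22 arrays were the highest of the 6, and the difference from the 4 others, 0.58 (SE 0.215), did not pass (limma adjusted p = 0.13). It passed without non-induced NpBI-22 replicate 1 (adjusted p = 0.04). SNRPE, named here after its values were seen, read 10.35 and 10.60 in induced and 9.28 and 10.51 in non-induced NpBI-22 cells, and 10.24 and 10.60 in induced and non-induced NpBI-206AS cells. Its difference within NpBI-22 cells, 0.58 (SE 0.402, adjusted p = 0.48), came with a difference of -1.23 between non-induced replicates 1 and 2, and the induced arrays lay 0.02 above the mean of the 3 arrays with code R587. A second row of SNRPE, not used for the counts, differed by 0.28 (SE 0.199, adjusted p = 0.49). SNRPD1, SNRPD2 and SNRPD3 differed by 0.44, 0.22 and -0.22 within NpBI-22 cells, and none was outside the range of the 4 other arrays. The class mean was 9.77 and 9.84 on the induced NpBI-22 arrays, 9.14 and 9.51 on the non-induced NpBI-22 arrays, and 9.35 and 9.54 in induced and non-induced NpBI-206AS cells. Non-induced NpBI-22 replicate 1 was the lowest array.

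SNRPN, the paralogue of SNRPB, appears on 8 rows only beside other symbols and was not analysed here.

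The U1 and U2 particles carry proteins of their own. SNRPA and SNRPC belong to U1, and SNRPA1 and SNRPB2 bind each other on the U2 RNA. For these 4 genes both induced NpBI-22 arrays lay outside the range of the other 4 arrays, SNRPB2 and SNRPC above and SNRPA and SNRPA1 below. Over all genes this held for 39.4% (22.1% above and 17.2% below). SNRPC rose and SNRPA1 fell against the 4 other arrays. None of the 4 passed within NpBI-22 cells by limma adjusted p. By unadjusted limma p under 0.05, 2 were higher and 1 lower, against 2224 and 1680 of all 18417 genes.

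SNRPA1, the U2 A′ protein, read 5.49 and 5.93 in induced and 6.25 and 7.06 in non-induced NpBI-22 cells, and 6.89 and 6.92 in induced and non-induced NpBI-206AS cells. It fell by 1.07 on the log2 scale against the 4 other arrays (SE 0.242, limma adjusted p = 0.027). Within NpBI-22 cells its difference was -0.94 (SE 0.311, adjusted p = 0.16). SNRPB2, the U2 B″ protein and its partner, read 9.89 and 10.20 in induced and 9.00 and 9.46 in non-induced NpBI-22 cells, and 9.50 and 9.57 in induced and non-induced NpBI-206AS cells. Its difference from the 4 others, 0.66 (SE 0.187), did not pass (adjusted p = 0.057). It passed under 7 of 11 alternatives, among them median centring (adjusted p = 0.049) and leaving out non-induced NpBI-22 replicate 1 (adjusted p = 0.025). Leaving out that replicate and taking only the arrays of code R587 for comparison are the same fit. They are counted as separate alternatives here and for the genes below. Within NpBI-22 cells SNRPB2 differed by 0.82 (limma adjusted p = 0.11) and passed without the dimmest 50 percent of rows (adjusted p = 0.045). The signs of the 2 partners' differences were opposite, and the U2 RNA gene RNU2-1 rose within NpBI-22 cells by 1.73 (adjusted p = 0.019).

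SNRPC, which helps U1 to hold the 5′ splice site, read 9.80 and 9.72 in induced and 9.27 and 9.16 in non-induced NpBI-22 cells, and 9.04 and 9.13 in induced and non-induced NpBI-206AS cells. It rose 1.53-fold against the 4 others (log2 change 0.61, SE 0.114, limma adjusted p = 0.014). SNRPA, which binds a stem-loop of the U1 RNA, differed by -0.13 in both comparisons. SNRPA1 did not pass against the 4 others without either induced array or without non-induced NpBI-22 replicate 2, with adjusted p of up to 0.22. SNRPC did not pass without either induced array, with adjusted p of up to 0.11.

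Among LSM1 to LSM8, the subunits of the U6 and decapping rings, 1 rose against the 4 other arrays. None passed within NpBI-22 cells by limma adjusted p. By unadjusted limma p under 0.05, 2 were higher and 0 lower, against 2224 and 1680 of all 18417 genes. The class median was 0.13, against 0.05 without non-induced replicate 1 and 0.38 without non-induced replicate 2. LSM4 read 10.85 on both induced NpBI-22 arrays, 10.24 and 10.43 on the non-induced NpBI-22 arrays, and 10.39 and 10.35 in induced and non-induced NpBI-206AS cells. It rose 1.41-fold against the 4 others (log2 change 0.50, SE 0.11, limma adjusted p = 0.025), and not without either induced array or without non-induced NpBI-22 replicate 2 (adjusted p of up to 0.14). LSM3 had the largest difference of the class within NpBI-22 cells, 1.15 (SE 0.334, adjusted p = 0.12), which passed without the dimmest 50 percent of rows (adjusted p = 0.046). It read 9.81 and 9.87 in induced and 8.18 and 9.19 in non-induced NpBI-22 cells, and 9.12 and 9.46 in induced and non-induced NpBI-206AS cells. The 2 non-induced replicates differed by nearly as much as the groups, and the difference was 0.65 without replicate 1 and 1.66 without replicate 2. Against the 4 others it differed by 0.85 (adjusted p = 0.13), and passed without replicate 1 (0.58, adjusted p = 0.021). LSM1, found in the decapping ring and not in the U6 ring, read 9.18 and 9.33 in induced and 8.62 and 9.10 in non-induced NpBI-22 cells, and 9.05 and 9.26 in induced and non-induced NpBI-206AS cells. Both induced NpBI-22 arrays lay above the non-induced NpBI-22 arrays and overlapped the NpBI-206AS arrays, with a difference of 0.39 within NpBI-22 cells (limma adjusted p = 0.36). LSM8, which takes the place of LSM1 in the U6 ring, differed by -0.17 (adjusted p = 0.77). The remaining 4, LSM2, LSM5, LSM6 and LSM7, differed by -0.20 to 0.24. The 3 deposited rows of LSM2 held the same values. The class mean in non-induced NpBI-22 replicate 1 was 8.17, against 8.49 to 8.69 on all other arrays, induced ones included.

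Neither U7 ring gene passed in either comparison, by adjusted or by unadjusted limma p. LSM10 read 8.38 and 8.22 in induced and 7.90 and 7.98 in non-induced NpBI-22 cells, and 8.17 and 8.22 in induced and non-induced NpBI-206AS cells. The difference within NpBI-22 cells was 0.36 (SE 0.154, limma adjusted p = 0.25). LSM11 read 6.32 and 6.16 in induced and 6.65 and 6.22 in non-induced NpBI-22 cells, and 6.43 in both NpBI-206AS conditions. Its difference was -0.20 (SE 0.198, adjusted p = 0.65), and 0.02 without non-induced replicate 1. For both genes the induced NpBI-22 arrays overlapped the range of the 4 others, although for LSM10 they lay above the non-induced NpBI-22 arrays.

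Of the larger LSM-domain proteins, LSM12, a cytoplasmic protein that binds ataxin-2, read 9.25 and 9.14 in induced and 9.89 and 9.61 in non-induced NpBI-22 cells, and 9.60 and 9.71 in induced and non-induced NpBI-206AS cells. It fell by 0.51 on the log2 scale against the 4 other arrays (SE 0.127, limma adjusted p = 0.038), and a second row gave -0.50 (adjusted p = 0.038). It no longer passed without either induced array or without non-induced NpBI-22 replicate 2, or after median centring of the arrays (adjusted p of up to 0.2). LSM14A, a component of P-bodies, read 9.81 and 10.05 in induced and 10.10 and 10.52 in non-induced NpBI-22 cells, and 10.39 and 10.52 in induced and non-induced NpBI-206AS cells. Both induced NpBI-22 arrays were the lowest, with a difference from the 4 others of -0.45 (adjusted p = 0.10). LSM14A passed there under 3 of 11 alternatives (lowest limma adjusted p = 0.018). Its paralogue LSM14B read 7.83 and 7.77 in induced and 7.90 and 7.82 in non-induced NpBI-22 cells, and 7.82 and 7.87 in induced and non-induced NpBI-206AS cells, and differed by -0.05 (adjusted p = 0.80).

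Integrator has a catalytic module that cuts RNA, a phosphatase module that holds protein phosphatase 2A, and a further module of INTS10, INTS13 and INTS14. All 16 genes asked for, INTS1 to INTS15 and INTS6L, were measured, and 1 passed. The class median within NpBI-22 cells was -0.07, with differences from -0.82 to 0.39. INTS10 read 8.20 and 8.17 in induced and 8.98 and 9.03 in non-induced NpBI-22 cells, and 8.99 and 9.13 in induced and non-induced NpBI-206AS cells. The 2 induced NpBI-22 arrays lay below the other 4, and within each group the arrays were close to each other. INTS10 fell by 0.82 on the log2 scale within NpBI-22 cells (SE 0.146, limma adjusted p = 0.049), a level 1.76-fold lower. It did not pass there after median centring (adjusted p = 0.055) or with the rows of each gene averaged across the table (adjusted p = 0.051). Against the 4 other arrays it fell by 0.85 (SE 0.108, adjusted p = 0.0036), and under 11 alternatives its adjusted p lay between 0.0017 and 0.043.

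The module partners of INTS10 gave no such difference. INTS13 differed by -0.06 within NpBI-22 cells, with a 95% interval, not adjusted for the number of genes, of -0.44 to 0.33. INTS14 differed by 0.20, with an interval of -0.17 to 0.57. The interval of INTS10, -1.18 to -0.46, lay below both. The difference between these genes' changes was not tested.

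In the catalytic module, INTS9 read 9.86 and 9.74 in induced and 9.32 and 9.58 in non-induced NpBI-22 cells, and 9.41 and 9.54 in induced and non-induced NpBI-206AS cells. Both induced NpBI-22 arrays were above the 4 others, and the difference within NpBI-22 cells was 0.35 (SE 0.168, limma adjusted p = 0.31). INTS4, its scaffold, read 8.13 and 8.03 in induced and 7.44 and 7.94 in non-induced NpBI-22 cells, and 7.93 and 8.10 in induced and non-induced NpBI-206AS cells. Both induced NpBI-22 arrays lay above the non-induced NpBI-22 arrays and overlapped the NpBI-206AS arrays, with a difference of 0.39 within NpBI-22 cells (SE 0.209, adjusted p = 0.36). INTS4 is also named beside other symbols on 2 further rows, which were not used here. INTS11, the endonuclease, differed by -0.23 (adjusted p = 0.57). The other 12 genes, INTS13 and INTS14 included, differed by -0.34 to 0.29.

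SNAPc binds the proximal sequence element in front of small nuclear RNA genes and serves both RNA polymerase II and III there. Of its 5 genes, 1 rose and none fell. SNAPC5, the smallest subunit, read 7.98 and 8.49 in induced and 6.95 and 6.90 in non-induced NpBI-22 cells, and 6.80 and 6.92 in induced and non-induced NpBI-206AS cells. The 4 other arrays lay within a narrow band, and both induced NpBI-22 arrays were well above it. Within NpBI-22 cells SNAPC5 rose 2.48-fold (log2 change 1.31, SE 0.21, limma adjusted p = 0.039). Against the 4 other arrays it rose 2.53-fold (log2 change 1.34, SE 0.155, adjusted p = 0.0027), with adjusted p between 0.0011 and 0.022 under 11 alternatives. The gene overlaps MAP2K1 and lies within 1000 bases of RPL4 in RefSeq's gene table. The MAP2K1 row differed from the 4 other arrays by -0.34 (adjusted p = 0.28), and the RPL4 row fell by 0.54 (adjusted p = 0.024).

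The other subunits did not pass in either comparison on the deposited values of all arrays and rows. SNAPC2 read 8.01 and 7.90 in induced and 7.71 and 7.15 in non-induced NpBI-22 cells, and 7.35 and 7.17 in induced and non-induced NpBI-206AS cells. Both induced NpBI-22 arrays were the highest, with a difference from the 4 others of 0.61 (SE 0.175, limma adjusted p = 0.06). SNAPC2 passed there under 4 of 11 alternatives (lowest adjusted p = 0.0056). SNAPC1 read 7.37 and 8.16 in induced and 8.04 and 8.13 in non-induced NpBI-22 cells, and 7.93 and 8.34 in induced and non-induced NpBI-206AS cells. Its 2 induced replicates differed by more than the groups did, and the difference of -0.32 (SE 0.279, adjusted p = 0.59) was 0.08 without induced replicate 1. SNAPC3 and SNAPC4, which with SNAPC1 form the part of the complex that binds DNA, differed by -0.03 and -0.21.

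**Figure D3:**
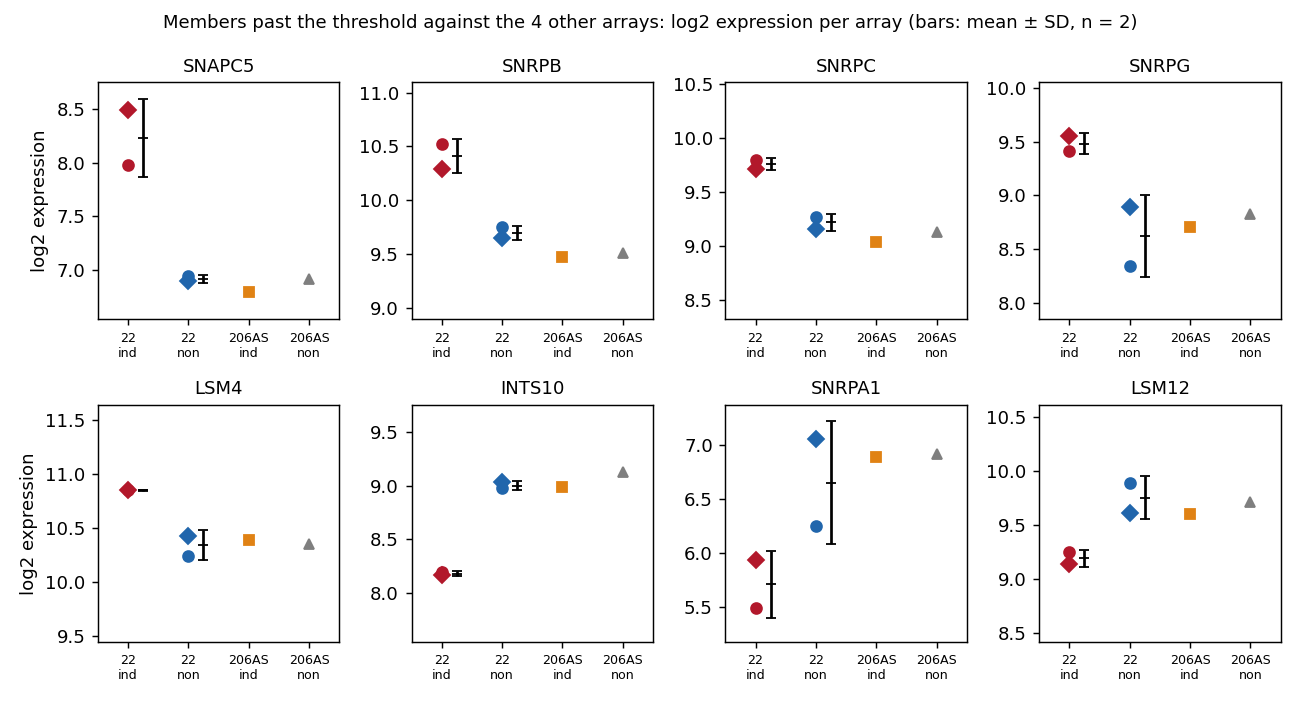
Log2 expression of the 8 genes that passed against the 4 other arrays, 1 point per array, with group names as in the plot of class means; bars give the mean ± SD of the 2 NpBI-22 replicates of each condition. SNAPC5 read 7.98 and 8.49 on the induced NpBI-22 arrays and 6.80 to 6.95 on the others, and INTS10 8.20 and 8.17 against 8.98 to 9.13.

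The 250 bases before the annotated start of SNAPC5 (chr15:66497763-66498012, minus strand), SNRPB (chr20:2470790-2471039, minus strand), SNRPC (chr6:34757255-34757504, plus strand), LSM4 (chr19:18323077-18323326, minus strand), SNRPA1 (chr15:101295249-101295498, minus strand) and LSM12 (chr17:44066672-44066921, minus strand) are given from RefSeq's promoter table (GRCh38.p14), as genes that passed against the 4 other arrays. SNRPG and INTS10, which also passed, are not printed. Capitals mark matches to 7 short motifs.
SNAPC5: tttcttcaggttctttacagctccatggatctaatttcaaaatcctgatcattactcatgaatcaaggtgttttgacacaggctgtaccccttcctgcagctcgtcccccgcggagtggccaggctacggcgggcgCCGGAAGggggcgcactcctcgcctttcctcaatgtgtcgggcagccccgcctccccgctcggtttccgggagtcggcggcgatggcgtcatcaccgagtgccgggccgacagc
SNRPB: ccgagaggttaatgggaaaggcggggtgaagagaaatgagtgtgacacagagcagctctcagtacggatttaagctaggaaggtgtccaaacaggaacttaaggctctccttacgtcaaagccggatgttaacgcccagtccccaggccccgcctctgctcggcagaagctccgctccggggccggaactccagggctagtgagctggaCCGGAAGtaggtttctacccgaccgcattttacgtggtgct
SNRPC: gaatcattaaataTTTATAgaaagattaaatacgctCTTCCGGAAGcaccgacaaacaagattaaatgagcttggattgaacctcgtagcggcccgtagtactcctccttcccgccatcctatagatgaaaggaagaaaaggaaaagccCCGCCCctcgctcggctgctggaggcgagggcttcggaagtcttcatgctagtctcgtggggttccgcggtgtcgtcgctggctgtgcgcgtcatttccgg
LSM4: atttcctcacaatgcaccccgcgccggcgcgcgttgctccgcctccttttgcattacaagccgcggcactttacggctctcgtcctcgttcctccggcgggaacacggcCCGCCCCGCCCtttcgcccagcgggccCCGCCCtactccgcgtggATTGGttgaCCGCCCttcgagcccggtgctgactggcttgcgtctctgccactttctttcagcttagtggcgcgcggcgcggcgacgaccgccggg
SNRPA1: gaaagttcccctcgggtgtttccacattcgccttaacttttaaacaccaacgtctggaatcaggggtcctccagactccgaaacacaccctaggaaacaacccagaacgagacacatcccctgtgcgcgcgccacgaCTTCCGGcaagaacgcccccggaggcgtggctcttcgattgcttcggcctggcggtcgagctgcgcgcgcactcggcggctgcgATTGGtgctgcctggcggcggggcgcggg
LSM12: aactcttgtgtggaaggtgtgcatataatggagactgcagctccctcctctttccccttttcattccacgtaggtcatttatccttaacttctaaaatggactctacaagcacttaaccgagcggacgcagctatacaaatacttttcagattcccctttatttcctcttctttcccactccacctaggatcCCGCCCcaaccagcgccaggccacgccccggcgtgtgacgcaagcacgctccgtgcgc
The motifs, searched on both strands, were CCGGAAG of ETS factors, ACTACAA of ZNF143, AAGATGGC of YY1, CCAAT of NF-Y, TATAAA of TATA boxes, CACGTG of E-boxes and GGGCGG of SP1. Neighbouring or overlapping matches merge into 1 run of capitals. The ETS motif is in the sequences of SNAPC5, SNRPB, SNRPC and SNRPA1, and in that of SNRPG. It is not in those of LSM4, which holds GGGCGG and CCAAT, and LSM12, which holds GGGCGG. SNRPC also holds TATAAA and GGGCGG, and SNRPA1 also holds CCAAT, each on one strand or the other. Promoters were found for 38 members, and 13 of them, 34.2%, hold CCGGAAG, against 11.8% of 15842 promoters of protein-coding genes and 8.82% of all 27305 in the table. These 13 include INTS1, INTS3, INTS4 and INTS11, LSM8, SNAPC5, and 7 SNRP genes, some with a positive and some with a negative difference. INTS10 had no recorded match to any of the 7 motifs, and whether it was among the 38 was not recorded. CCAAT was found in 42.1% of member promoters and 34.5% of those of protein-coding genes, GGGCGG in 60.5% and 56.0%, and ACTACAA in 5.26% and 2.88%. The other 3 were less frequent in member promoters: TATAAA was found in 2.63% of them and 9.23% of those of protein-coding genes, CACGTG in 5.26% and 7.84%, and AAGATGGC in 0.0% and 1.39%. These are matches of letters and not shown to be sites.

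The 3 remaining genes taken by symbol showed no change that passed. SNRPD2P2 read 3.64 and 3.62 in induced and 3.35 and 3.22 in non-induced NpBI-22 cells, and 3.43 and 3.72 in induced and non-induced NpBI-206AS cells. Its mean lay under the lower quartile of the arrays. LSMEM1 read 4.78 and 4.92 in induced and 4.68 and 5.08 in non-induced NpBI-22 cells, and 5.11 and 5.04 in induced and non-induced NpBI-206AS cells, a difference of -0.03 within NpBI-22 cells (limma adjusted p = 0.96). LSMEM2 read 5.44 and 5.56 in induced and 5.56 and 5.67 in non-induced NpBI-22 cells, and 5.74 and 5.61 in induced and non-induced NpBI-206AS cells, a difference of -0.12 (adjusted p = 0.74). In all 3 genes the induced NpBI-22 arrays overlapped the range of the 4 others, although for SNRPD2P2 they lay above the non-induced NpBI-22 arrays.

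Induced NpBI-206AS cells received the same doxycycline treatment, so the design also allows their response to be described, with 1 array per condition and no test. Induced minus non-induced NpBI-206AS cells gave member differences from -0.44 to 0.29 on the log2 scale, with a median of -0.11, and no member reached 2-fold, against 0.109% of all genes. SNAPC5 differed by -0.12, INTS10 by -0.14, SNRPB by -0.04, SNRPA1 by -0.02 and LSM4 by 0.04. The 2 largest differences were those of SNRPD1 (-0.44) and SNAPC1 (-0.40). When this response was subtracted from that of NpBI-22 cells in the limma model, 0 members and 0 of 33297 rows passed, with 5 members at an unadjusted p under 0.05, or 10.4%, against 8.01% of all genes. The remaining difference was 1.43 for SNAPC5 (SE 0.364, adjusted p = 0.40), -0.68 for INTS10 (SE 0.252, adjusted p = 0.53) and 0.74 for SNRPB (SE 0.281, adjusted p = 0.54). In this model the single NpBI-206AS arrays are assumed to vary like the NpBI-22 arrays. With doxycycline on both sides, induced NpBI-22 minus induced NpBI-206AS cells differed by 1.43 for SNAPC5, 0.94 for SNRPB, -0.81 for INTS10 and -1.18 for SNRPA1. SNAPC5 and SNRPA1 were the members at least 2-fold apart there, 1 higher and 1 lower, or 4.17%, against 3.64% of all genes (1.76% higher and 1.88% lower).

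**Figure D4:**
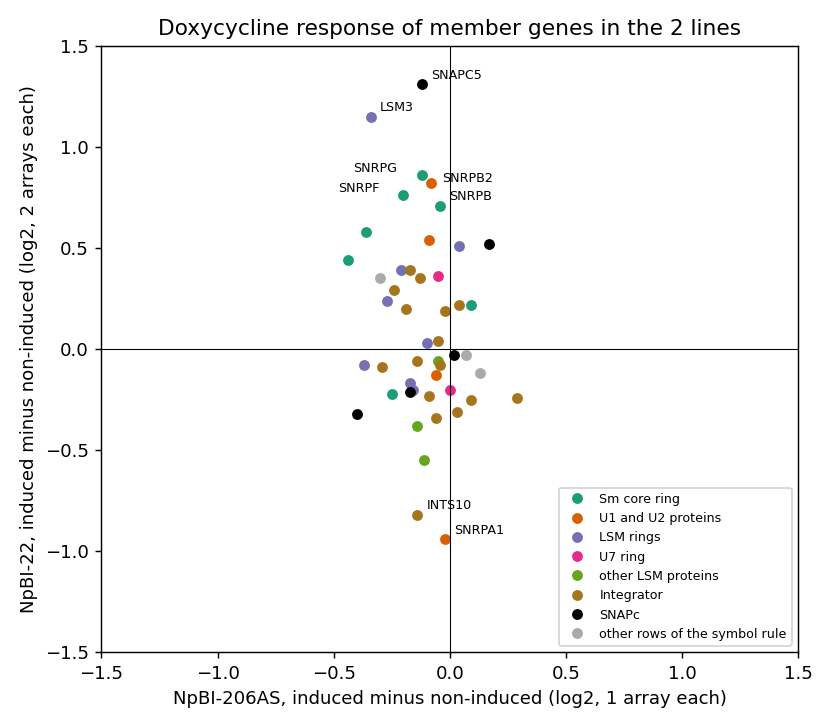
Log2 difference between induced and non-induced cells for each of the 48 genes, in NpBI-206AS cells (horizontal, 1 array each) and NpBI-22 cells (vertical, mean of 2 arrays each), coloured by class. Members spread from -0.94 to 1.31 vertically and from -0.44 to 0.29 horizontally.

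Beyond the families themselves, partner genes were read from 6 lists. These hold snRNP-specific and tri-snRNP proteins, the SMN complex and Sm assembly, and small nuclear RNA export, import and maturation. They also hold factors of small nuclear RNA gene transcription, Integrator-linked genes and decapping partners. Of 82 genes measured, GEMIN2 alone passed within NpBI-22 cells, where 3.26% of all genes passed. GEMIN2, the SMN complex subunit that holds the Sm proteins before they meet the RNA, read 5.87 and 5.79 in induced and 6.88 and 7.20 in non-induced NpBI-22 cells, and 6.86 and 7.32 in induced and non-induced NpBI-206AS cells. It fell by 1.21 on the log2 scale (SE 0.174, limma adjusted p = 0.032). The other 10 measured genes of that list did not pass in either comparison, and SMN1 and SMN2 had no row used here.

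Against the 4 other arrays, the list of snRNP-specific and tri-snRNP proteins had 3 of 23 higher and 1 lower, including SNRNP48 of the minor spliceosome (0.87, limma adjusted p = 0.0073) and SART1 (-0.50, adjusted p = 0.036). Of 11 genes for export, import and maturation, 2 fell: KPNB1, the import receptor importin beta (-0.70, adjusted p = 0.012), and TGS1, which converts the cap of small nuclear RNAs (-0.59, adjusted p = 0.027). Of 18 genes for their transcription, 2 rose and 2 fell. ICE1, of the elongation complex at small nuclear RNA genes, fell by 1.06 (adjusted p = 0.0077), and BDP1, of the RNA polymerase III initiation factor, fell by 0.83 (adjusted p = 0.028), while BRF2, of the RNA polymerase III initiation factor used at the U6 gene, rose by 0.62 (adjusted p = 0.01). None of 11 Integrator-linked genes passed, PPP2R1A and NABP1 having the largest differences within NpBI-22 cells (0.74 and -0.34). By unadjusted limma p under 0.05, 1 stood out there and 2 against the 4 others. Of all genes, 21.2% and 28.6% did so in these comparisons. Of 8 decapping partners of the LSM ring, the scaffold genes EDC4 and EDC3 fell (-0.83 and -0.61, adjusted p = 0.007 and 0.012). In all, 13 of 82 passed against the 4 others, or 15.9%, against 14.1% of all genes.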

How the data were processed

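Expression was measured in 6 RD18 cultures on 1 Affymetrix array each. The deposited table holds log2 values of 33297 rows, which the authors computed by RMA with the Partek software. Both names come from the submitters' processing notes, and their versions and settings are not stated in the sources used here. RMA gives all arrays nearly the same distribution, so a shift of the whole transcriptome cannot appear in these values. The table has no detection calls. Rows were named through the platform's annotation, with symbols updated by gene ID (19429 of 19460 single-symbol rows matched; GRCh38.p14). No member's symbol changed.

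Groups follow the sample titles. Tests used limma 3.58.1 in R 4.3.3, two-sided, on all rows, with Benjamini-Hochberg adjustment over 33297 rows and a threshold of 0.05. A mean per group over 6 arrays (2 residual degrees of freedom) gave the comparison within NpBI-22 cells and the difference between the lines' responses; a second model set the induced NpBI-22 arrays against the other 4 (4 residual degrees of freedom). The code was tested on simulated data. Members, classes and lists were chosen with earlier results of these data known. Values per array are given for 23 members by rule: those that passed, the 3 largest differences of each class within NpBI-22 cells, and LSM10, LSM11 and SNAPC1; from each further list up to 3 genes that passed were named, or otherwise the 2 largest differences. Alternatives were leaving out arrays, other normalizations, a filter on dim rows, averaged rows, a variance trend, NpBI-22 arrays alone and a replicate block. NpBI-22 arrays alone gave the same fit as the main setting within NpBI-22 cells, so that alternative could not differ.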

Additional observations from a re-analysis of the deposited data

How the results depend on the processing

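Within NpBI-22 cells, 1200 rows and 2 members passed. With any 1 NpBI-22 array left out, 0 rows and 0 members passed, in a fit with 1 residual degree of freedom. Without the dimmest 50 percent of rows, 2611 rows and 6 members passed: SNAPC5 and INTS10 with LSM3, SNRPB, SNRPB2 and SNRPG. Centring each array on its median, or averaging the rows of a gene, left 1 member, SNAPC5; after centring 718 rows were higher and 574 lower, in place of 531 and 669. With the replicate number as a block on the NpBI-22 arrays alone, 2955 rows and 7 members passed, these 6 and SNRPA1. The labels only number the replicates, and the deviations of same-numbered arrays correlated at 0.196 over rows. Against the 4 other arrays, 4576 rows and 8 members passed, and with 1 NpBI-22 array left out 897 to 7463 rows and 2 to 16 members. The upper values come from leaving out non-induced replicate 1, which is the same fit as taking only the arrays of code R587 for comparison (7463 rows, 16 members). Centring gave 2628 higher and 2042 lower rows there, in place of 2103 and 2473. The median of the larger LSM proteins, -0.38, ran from -0.50 to -0.17 with 1 array left out. Of the 23 members with values per array by rule, 19 kept their sign within NpBI-22 cells and 21 against the 4 others under every alternative. None of the exceptions had passed. LSMEM1 ran from -0.23 to 0.17 with 1 array left out and read 0.04 with centring, 0.05 after renewed quantile normalization and 0.01 after cyclic loess. SNAPC1 ran from -0.72 to 0.08, and from -0.74 to 0.05 against the 4 others, with 1 array left out, and LSM11 from -0.41 to 0.02. LSM14B read 0.01 with centring in both comparisons. The cause of these shifts was not tested, and some of the fits also had fewer arrays or rows.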
